A study of Mus musculus with 60 samples.

Results

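The livers of mice exposed to 16O ions were compared with those of non-irradiated control mice 1 month after exposure, in 6 of the 60 liver samples that make up the series. The 3 16O samples and the 3 control samples were all those whose labels gave that exposure and that time. All 6 came from male C3H/HeNCrl mice, an inbred strain prone to liver tumours, which were 8 to 10 weeks old at exposure. The irradiated mice received a total body dose of 0.2 Gy of 16O ions at 1 GeV per nucleon, the controls received none (non-irradiated or sham-irradiated), and tissue was taken 30 days later. Mice were shipped after irradiation and quarantined for 1 month, and the hour of collection was not given in the sources used here. The 56Fe mice (0.6 GeV per nucleon) and 28Si mice (0.35 GeV per nucleon) used below for comparison received the same 0.2 Gy, and the 16O mice of 2, 4, 9 and 12 months had controls of their own age. Each group had 3 mice, and the 3 control livers of 1 month serve all 3 ions of that month. Total RNA came from slices of the left liver lobe with all their cell types, so fewer cells of a type and less RNA per cell cannot be told apart in any value below.

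Liver cells make cholesterol and fatty acids under transcription factors called SREBPs. SREBP2 drives the mevalonate and sterol genes when membrane cholesterol is low, SREBP1c drives fatty acid synthesis after feeding and insulin, and INSIG1, itself a target of both, holds their precursors in the endoplasmic reticulum. The opposite programme, the uptake and oxidation of fatty acids in fasting, is switched on by the nuclear receptor PPARα. Metallothioneins are small cysteine-rich proteins that bind zinc and copper and are induced by metals, glucocorticoids and inflammatory cytokines, and serum amyloid A is a plasma protein of the hepatic acute phase response.

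At 1 month the 16O livers held more metallothionein RNA, more mitochondrial ribosomal RNA and less RNA of the sterol and fatty acid synthesis genes than the control livers. Mt2 and Mt1 had the 2 highest folds among the genes that rose by the naming rule given in the methods. Tubb2a, a beta tubulin, and Serpina7, which encodes thyroxine-binding globulin, had the lowest adjusted p-values of all genes and both fell. All 25 tested genes of cholesterol synthesis and uptake were lower in the 16O mean, where 5550 of all 11083 genes were lower. Of the 25, 8 fell, against 0.740% of all genes, and 2 to 11 fell with 1 library left out.

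The values are RPKM, read counts normalised to transcript length and to the mapped reads of the library, summed over the transcripts of each gene. Of 11083 genes tested, 76 passed an adjusted p of 0.05 together with a fold of 2, which is 0.686% of those tested. Of these, 47 were higher and 29 lower in 16O livers. On the adjusted p alone 177 genes passed, 1.60% of those tested, with 95 higher (0.857%) and 82 lower (0.740%). In what follows a gene "rose" or "fell" where its adjusted p, from limma with Benjamini-Hochberg adjustment over all 11083 genes, was at most 0.05. An unadjusted p under 0.05 was reached by 1446 genes, with 6.63% of all genes higher in 16O and 6.42% lower. The 3 16O values did not overlap the 3 control values for 2049 genes, or 18.5%, and this is the background for any statement on overlap below. Counts of genes without overlap used values scaled between libraries. Printed RPKM are unscaled, and overlap can differ between these scales. Differences are given on the log2(RPKM + 0.1) scale, on which 1 is a fold of 2 and low genes are understated, with a standard error (SE). The median over all genes tested was -0.0005, with 5533 genes higher and 5550 lower. Without 16O replicate 1 the count of 76 became 44, and the count of 177 became 54 to 95 when 1 of the 16O libraries, control replicate 1 or control replicate 2 was left out. Of the 67 genes of the naming rule that rose or fell, 26 kept their call in every fit with 1 library left out in which they passed the filter, 35 lost it in some of those fits and 6 in all of them.

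The 6 libraries held 15971980 to 24341388 mapped read pairs, and their gene values correlated with Spearman's rho of 0.971 to 0.988. Control replicate 3 stood apart, with 62.4% of its reads in annotated transcripts against 46.6% and 47.7% in the other controls and 51.7% to 56.7% in the 16O libraries. Hepatocyte markers summed to 21542 to 27532 RPKM in 16O and to 21431 to 31999 in control livers. Of the 10 tested hepatocyte markers 1, Tat, fell, against 0.740% of all genes. No marker passed among the 14 tested for Kupffer cells or the 14 tested for sinusoidal endothelium in limma or in voom, with 1 and 0 at an unadjusted p under 0.05 in limma and 3 and 0 in voom. Neutrophil markers summed to 0.764 to 1.35 RPKM in 16O and to 0.764 to 1.92 in control livers, none of the 10 reached the filter on low values, and 2 were at 0 in all 6 libraries. B cell markers (1.21 to 1.78 against 1.56 to 1.71 RPKM) and T and NK cell markers (0.987 to 2.19 against 1.10 to 1.77 RPKM) were as low, with 1 gene of each list tested.

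Mt1 (ENSMUSG00000031765, chr8:94179082-94180327 of GRCm38, plus strand) and Mt2 (ENSMUSG00000031762, chr8:94172664-94173568, plus strand) are neighbouring genes on chromosome 8 that encode the main hepatic metallothioneins. Their RefSeq promoters, 250 bases before to 50 bases after the start on build GRCm38.p6, are shown because metal response elements, the sites of the zinc sensor MTF1, are the textbook control of these genes. Capitals mark each match on either strand to TGCACNC or TGCGCNC, the core of that element. Mt1 held 3 matches and Mt2 held 4, at chr8:94178839-94179138 and chr8:94172368-94172667, both on the plus strand.
Mt1: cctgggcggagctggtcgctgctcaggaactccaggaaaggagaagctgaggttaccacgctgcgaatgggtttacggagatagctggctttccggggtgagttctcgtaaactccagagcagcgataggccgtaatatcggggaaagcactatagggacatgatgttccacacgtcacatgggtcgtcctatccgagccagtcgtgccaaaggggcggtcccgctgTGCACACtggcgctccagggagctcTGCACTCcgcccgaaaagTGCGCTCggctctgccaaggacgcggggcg
Mt2: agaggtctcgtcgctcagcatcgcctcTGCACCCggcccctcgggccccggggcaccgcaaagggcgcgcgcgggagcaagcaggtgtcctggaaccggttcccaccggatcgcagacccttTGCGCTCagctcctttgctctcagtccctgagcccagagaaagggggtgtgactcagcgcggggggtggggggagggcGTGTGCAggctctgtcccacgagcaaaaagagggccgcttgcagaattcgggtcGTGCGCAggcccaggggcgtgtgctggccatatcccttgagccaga
At least 1 match was present in 3159 of the 8665 tested genes with a RefSeq promoter, or 36.5%, and 4 or more in 77, or 0.889%. A match describes letters in the window and no binding was measured.

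Mt2 stood at 50.4, 16.8 and 32.8 RPKM in the 3 16O mice and at 1.46, 2.73 and 4.78 RPKM in the 3 controls. The lowest 16O value was above the highest control value, and Mt2 rose by 3.49 on the log2 scale (SE 0.38, adjusted p = 0.00323). Mt1 stood at 120.1, 44.01 and 62.1 RPKM in 16O mice and at 12.4, 12.96 and 11.1 RPKM in controls. The groups were again apart, the controls within a narrow range and the 16O mice spread more widely, and Mt1 rose by 2.53 (SE 0.28, adjusted p = 0.00405). Both kept their call whichever of the 6 libraries was left out. For both genes 16O replicate 1 was the highest and 16O replicate 2 the lowest of the irradiated mice. Slc30a10, a manganese exporter in the list of metallothionein and zinc genes, fell from 4.18 to 5.06 RPKM in controls to 1.86 to 2.60 RPKM (log2 difference -0.89, SE 0.17, adjusted p = 0.031), a call that was kept in 1 of 6 fits with a library left out.

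Of 40 tested positive acute phase genes, which the liver secretes or raises in inflammation, 4 rose, against 0.857% of all genes that rose. None fell (0 fell at an unadjusted p under 0.05). The 4 that rose were Mt1, Mt2, Saa1 and Il1r1. In voom 7 of the list rose and none fell, where 146 of all 11083 genes rose. In all, 34 of the 40 were higher and 6 lower in the 16O mean, with a median difference of 0.25. Saa1 stood at 48.8, 98.9 and 159.9 RPKM in 16O mice and 34.7, 13.9 and 19.8 RPKM in controls. Control replicate 1 came closest to the 16O range, and Saa1 rose by 2.14 (SE 0.42, adjusted p = 0.0353). It shares near-identical sequence with Saa2, which was lower in level (6.93, 10.8 and 24.6 against 6.20, 3.41 and 6.58 RPKM) and did not pass (1.27, SE 0.38, adjusted p = 0.158), so the split of reads between them is uncertain. Il1r1, the signalling receptor of interleukin 1, was tight in both groups, at 7.97 to 8.97 RPKM in 16O and 4.07 to 5.08 in control livers (0.97, SE 0.12, adjusted p = 0.00537). The abundant acute phase proteins did not pass, with haptoglobin (Hp) at 773 to 925 against 623 to 844 RPKM (0.27, SE 0.14, adjusted p = 0.462) and Orm1 at 0.24 (SE 0.17, adjusted p = 0.632). Lcn2, a marker of strong acute phase induction, was near 1 RPKM in both groups (0.47, SE 0.21, adjusted p = 0.389). Saa1 lost its call without 16O replicate 2 (adjusted p = 0.112), 16O replicate 3, control replicate 2 or control replicate 3.

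**Figure D1:**
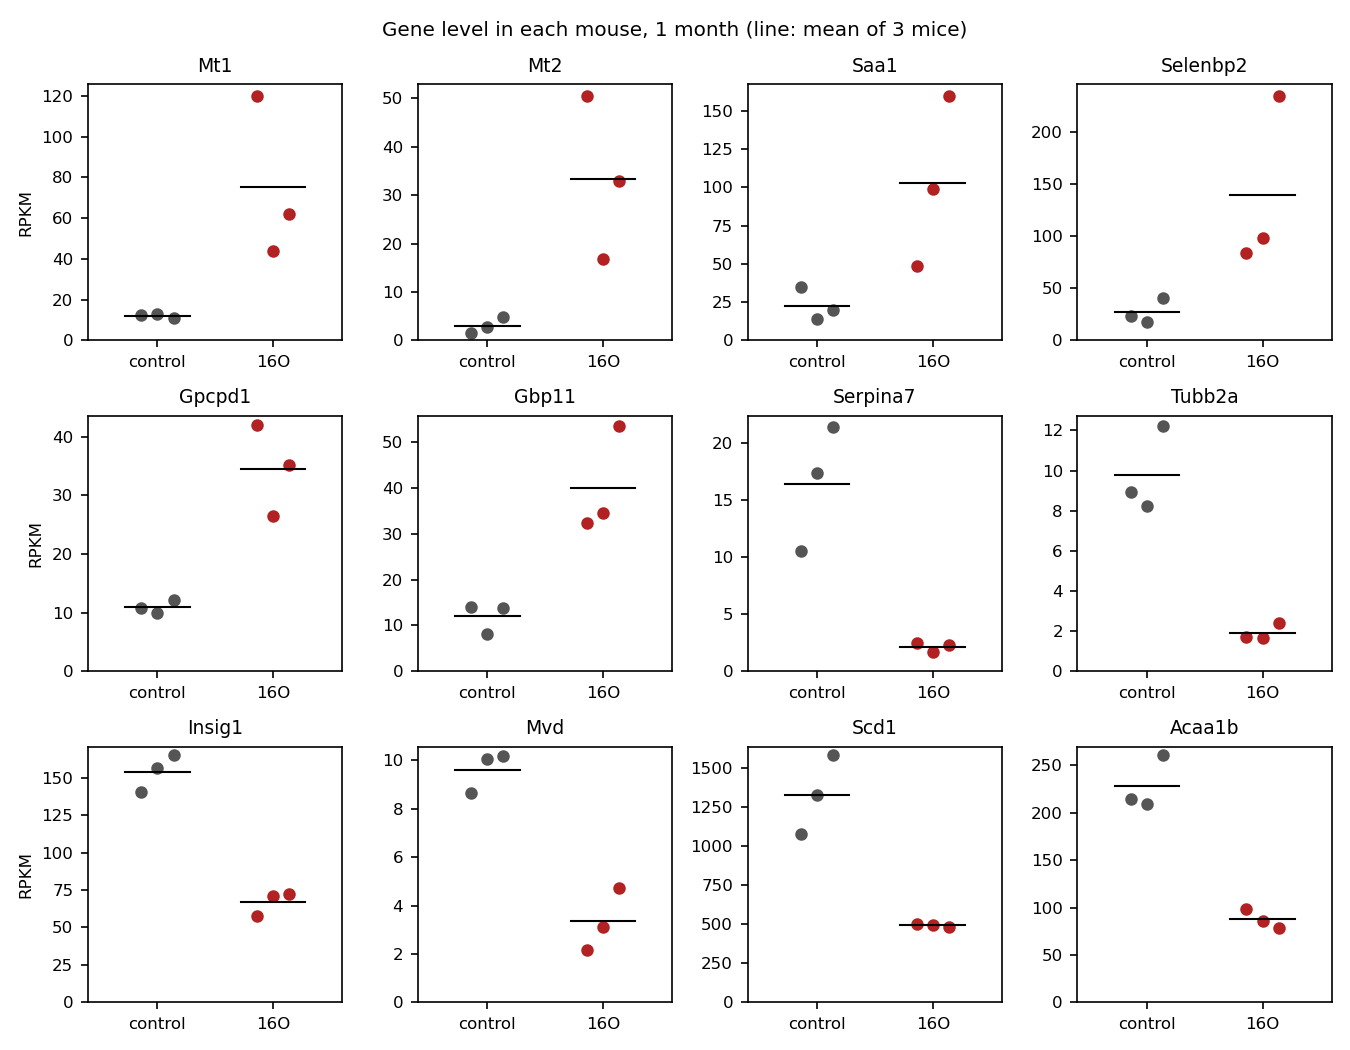
RPKM (vertical axes, linear from 0) of 12 genes in each of the 3 control and 3 16O mice of 1 month, 1 point per mouse with the group mean as a line. In each of the 12 panels the 3 16O points lie wholly above or wholly below the 3 control points, with Mt1 at 44.01 to 120.1 RPKM in 16O mice and Tubb2a at 1.65 to 2.41.

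Serpina7 (ENSMUSG00000031271, chrX:139079257-139085236, minus strand) carries thyroxine in plasma and was one of 16 tested negative acute phase genes. Its RPKM were 2.53, 1.67 and 2.31 in 16O mice and 10.5, 17.4 and 21.5 in controls. It fell by 2.79 (SE 0.20, adjusted p = 0.000312), and every control value was above every 16O value. Of the same list Selenbp2, a selenium-binding protein of the liver, rose from 23.1, 17.7 and 40.5 RPKM in controls to 84.2, 98.7 and 235 in 16O mice (2.33, SE 0.34, adjusted p = 0.0113). Its near-identical neighbour Selenbp1 can share its reads, so the gene to which the rise belongs is uncertain. Transthyretin (Ttr), the other thyroxine carrier of the list, was at 1538 to 1859 RPKM against 1391 to 2212 RPKM in controls, overlapping, with a difference of 0.07 (SE 0.16, adjusted p = 0.912). In the list as a whole 1 gene rose and 1 fell, against 0.857% and 0.740% of all genes. It had 10 genes higher and 6 lower, with a median of 0.11.

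The cholesterol list held the enzymes from acetyl-CoA to cholesterol and genes of cholesterol uptake and its control. All 25 were tested, all 25 were lower in the 16O mean, and the 3 16O values did not overlap the 3 control values for 21 of them, against 18.5% of all genes. In limma 8 fell and none rose (0 rose at an unadjusted p under 0.05), against 0.740% of all genes that fell, and the median difference was -0.64. The summed level of the list was 766 to 1035 RPKM in 16O and 1211 to 1720 RPKM in control livers. The genes share a regulator and are not independent of each other. The count of 8 became 2 without 16O replicate 1, 3 without 16O replicate 2 and 2 without control replicate 2. It was 15 in voom, where 156 of all 11083 genes fell.

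Insig1 stood at 57.6, 70.7 and 72.1 RPKM in 16O and at 141, 156 and 165 RPKM in control mice. The groups lay far apart relative to their spread, and Insig1 fell by 1.17 (SE 0.14, adjusted p = 0.00502), without any change of call when 1 library was left out. Mvd, the mevalonate pathway's decarboxylase, was at 2.18, 3.12 and 4.74 against 8.64, 10.04 and 10.2 RPKM. It had the largest fall of the list (-1.52, SE 0.23, adjusted p = 0.013) and kept its call in every fit that left out 1 library.

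Hmgcs1, a synthase early in the mevalonate pathway, stood at 34.5, 35.8 and 57.3 RPKM in 16O mice and 72.4, 96.8 and 128 in controls. The highest 16O value, of replicate 3, lay below the lowest control value, and Hmgcs1 fell by 1.18 (SE 0.20, adjusted p = 0.0188). Its promoter (chr13:119690101-119690400, plus strand, GRCm38.p6) is shown because it was the only 1 of the 17 list members with a RefSeq promoter to hold TCACNCCAC, a core of the sterol regulatory element bound by SREBPs, on either strand. Capitals mark the match.
Hmgcs1: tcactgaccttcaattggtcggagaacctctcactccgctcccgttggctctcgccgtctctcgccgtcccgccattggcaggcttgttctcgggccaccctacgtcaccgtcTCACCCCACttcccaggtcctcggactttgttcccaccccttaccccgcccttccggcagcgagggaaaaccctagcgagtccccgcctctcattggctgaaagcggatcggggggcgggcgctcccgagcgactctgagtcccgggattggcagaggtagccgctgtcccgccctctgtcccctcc
Those letters were found in 101 of the 8665 promoters, or 1.17%, so their absence from 16 list members says only that the letters do not occur in these 300-base windows.

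Further list members that fell act later in the pathway, among them squalene synthase Fdft1 (-0.96, SE 0.15, adjusted p = 0.0144), and the sterol-ring enzymes Sc5d (-0.72, adjusted p = 0.0356), Tm7sf2 (-0.62, adjusted p = 0.0377) and Hsd17b7 (-0.71, adjusted p = 0.0409). Several sat just outside the threshold without overlap of the groups, as Fdps at 22.5, 22.9 and 31.8 against 34.3, 40.3 and 50.96 RPKM (-0.66, SE 0.15, adjusted p = 0.0547). Squalene epoxidase Sqle (-0.84, SE 0.19, adjusted p = 0.0607) did not pass either. Srebf2, which encodes SREBP2, was at 6.59 to 8.94 against 8.86 to 12.7 RPKM, overlapping before scaling (-0.37, SE 0.13, adjusted p = 0.25). Hmgcs1 and Fdft1 lost their calls without 16O replicate 1 or 2 or control replicate 2. Tm7sf2 and Hsd17b7 each kept their call in 1 of 6 fits with a library left out, and Sc5d in 2 of 6.

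**Figure D2:**
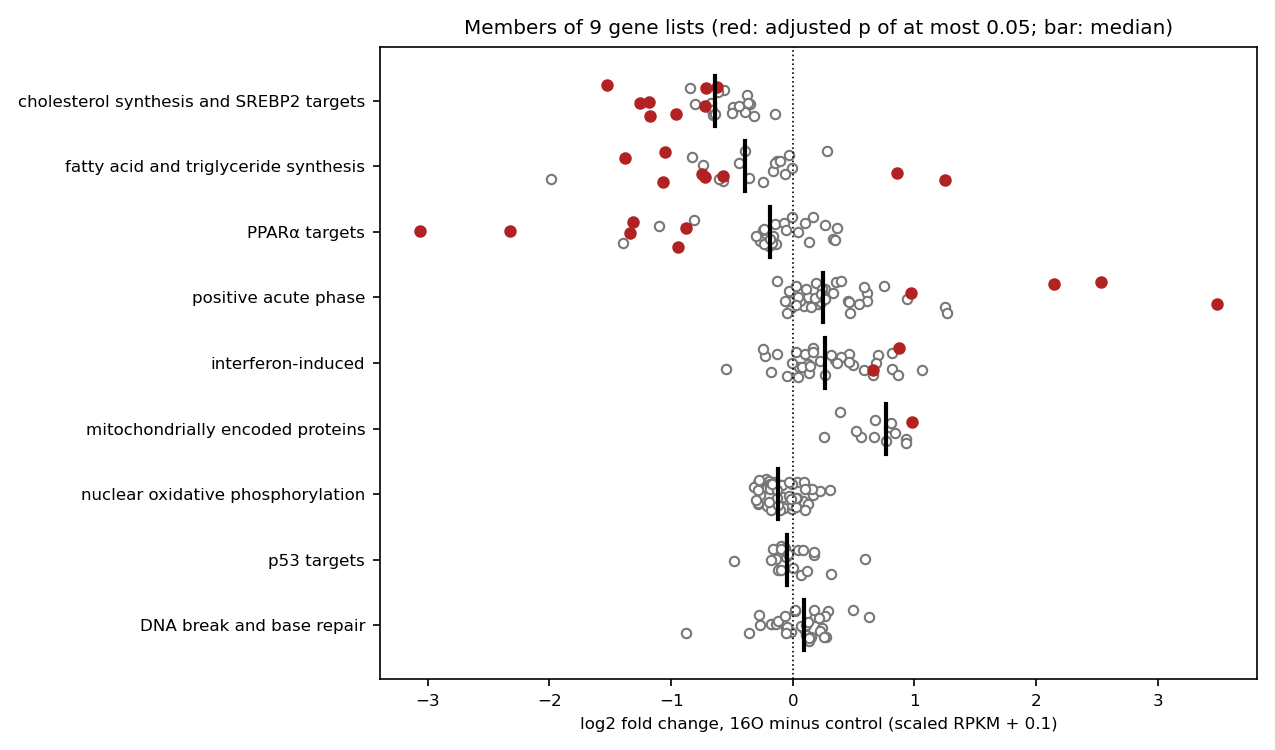
Log2 difference of 16O minus control at 1 month for every tested member of 9 gene lists, 1 point per gene, with filled points for adjusted p of at most 0.05 and a bar at each list's median. The cholesterol list lies wholly below 0 with a median of -0.64, and the 13 mitochondrially encoded protein genes lie wholly above 0 with a median of 0.77.

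Of 25 tested genes of fatty acid and triglyceride synthesis, 6 fell and 2 rose, against 0.740% and 0.857% of all genes, with 22 lower and 3 higher and a median of -0.39. Scd1 (chr19:44394455-44407879, minus strand), the desaturase that makes oleate, was the most abundant of those that fell. It stood at 503, 497 and 479.6 RPKM in 16O mice and at 1078, 1326 and 1583 in controls. The 16O values were nearly equal to each other, and Scd1 fell by 1.37 (SE 0.14, adjusted p = 0.00278). Gpam, the first acyltransferase of triglyceride synthesis, stood at 48.01, 48.2 and 50.7 against 87.4, 116 and 114 RPKM (-1.06, SE 0.13, adjusted p = 0.00552). Fatty acid synthase Fasn stood at 87.5, 130.0 and 108 against 199, 245 and 243 RPKM (-1.05, SE 0.18, adjusted p = 0.0193). Acly (-0.72, adjusted p = 0.031), Acss2 (-0.57, adjusted p = 0.0464) and Me1 (-0.75, adjusted p = 0.0476), which supply acetyl-CoA or NADPH, also fell. Acss2 and Me1 lost their call whichever library was left out, and Acly lost it in 5 of the 6 fits.

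The members that rose do not make fatty acids themselves. Lpin1, a phosphatidate phosphatase that also co-activates PPARα, rose from 24.6, 29.6 and 44.4 RPKM to 99.8, 50.4 and 80.6 (1.25, SE 0.21, adjusted p = 0.0196). Pklr, liver pyruvate kinase, rose from 20.2 to 29.5 RPKM in controls to 36.4 to 47.004 in 16O mice (0.85, SE 0.13, adjusted p = 0.0131). Srebf1, the gene of SREBP1c, was lower in each 16O mouse at 88.1 to 97.5 against 128 to 133 RPKM but did not pass (-0.45, SE 0.13, adjusted p = 0.139). Acaca (-0.36, SE 0.14, adjusted p = 0.302) and Mlxipl (-0.06, SE 0.23, adjusted p = 0.954), the gene of the glucose sensor ChREBP, did not pass. When 16O replicate 1, 16O replicate 3 or control replicate 2 was left out, the count of 6 that fell became 2, and leaving out control replicate 1 gave 3. Scd1 and Gpam fell in each of those fits, whereas Lpin1 kept its call in 2 of the 6 fits with a library left out.

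Of 31 tested PPARα targets 6 fell and none rose in limma (1 rose at an unadjusted p under 0.05), against 0.740% of all genes that fell. In voom 7 fell and none rose, where 156 of all 11083 genes fell. The list had 23 genes lower and 8 higher and a median of -0.19, and the count that fell was 4 to 5 with 1 library left out. Acaa1b, a thiolase that ends the peroxisomal oxidation cycle, stood at 98.5, 85.7 and 78.8 RPKM in 16O mice against 214, 209 and 261 in controls. The groups were well apart, and Acaa1b fell by 1.34 (SE 0.13, adjusted p = 0.00182), although its close paralogue Acaa1a can share reads. Ehhadh, the peroxisomal bifunctional enzyme, stood at 28.3, 24.7 and 28.4 against 46.2, 47.1 and 70.0 RPKM (-0.94, SE 0.12, adjusted p = 0.0069). The acyl-CoA thioesterases Acot1 (-1.32, SE 0.18, adjusted p = 0.00913) and Acot2 (-0.88, SE 0.19, adjusted p = 0.0481) are close paralogues and fell at 0.784 to 1.25 RPKM in 16O mice. Acot2 lost its call whichever library was left out.

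The omega-hydroxylases Cyp4a10 and Cyp4a14, the most sensitive targets of PPARα in mouse liver, were low in every library. Cyp4a10 stood at 1.12, 0.336 and 0.854 RPKM in 16O mice against 2.58, 4.85 and 5.02 in controls and fell (-2.32, SE 0.34, adjusted p = 0.0114). Cyp4a14 rested on 2, 3 and 4 reads in 16O mice against 37, 78 and 59 in controls. It passed the filter on low values through the control mice, so its call (adjusted p = 0.00251) is partly set by the filter, and its difference of -3.07 became -1.62 with a pseudocount of 0.5. PPARα targets of mitochondrial oxidation did not pass, with the carnitine transferase Cpt1a at 55.0 to 73.4 against 44.5 to 63.8 RPKM (0.34, SE 0.12, adjusted p = 0.249). Ppara itself was at 0.27 (SE 0.12, adjusted p = 0.393), and the fasting hormone Fgf21 was at 1.16, 1.03 and 0.789 against 1.21, 2.55 and 3.82 RPKM (-1.10, SE 0.31, adjusted p = 0.129). Outside the list Crat, carnitine acetyltransferase of mitochondria and peroxisomes, fell from 8.89 to 11.3 RPKM to 2.51 to 4.65 RPKM (-1.38, SE 0.18, adjusted p = 0.0069). Acnat2, a peroxisomal acyltransferase, fell by 1.61 (SE 0.28, adjusted p = 0.0227), a call kept in 2 of 6 fits with a library left out.

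Tubb2a shared the lowest adjusted p-value of all genes with Serpina7 (Tubb2a is ENSMUSG00000058672, chr13:34074274-34078007, minus strand). It stood at 1.70, 1.65 and 2.41 RPKM in 16O mice and at 8.94, 8.22 and 12.2 in controls. The groups were wholly apart, and Tubb2a fell by 2.25 (SE 0.16, adjusted p = 0.000312). Reads can be shared with its near-identical paralogue Tubb2b. Tuba1c, an alpha tubulin with close paralogues of its own, fell in parallel from 6.89 to 9.95 RPKM to 2.87 to 4.18 RPKM (-1.12, SE 0.16, adjusted p = 0.0114). Both kept their call in every fit that left out 1 library.

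Among the remaining genes that rose by the naming rule, Gpcpd1, a phosphodiesterase that breaks down glycerophosphocholine, stood at 42.03, 26.5 and 35.2 RPKM against 10.9, 9.96 and 12.1 in controls (1.66, SE 0.15, adjusted p = 0.00126). Chka, choline kinase of the same branch of lipid metabolism, fell from 11.3 to 14.95 RPKM to 4.86 to 6.47 RPKM (-1.12, SE 0.19, adjusted p = 0.0196). Neither gene overlapped between the groups. Gpcpd1 kept its call in all 6 fits with a library left out and Chka in 2 of 6. Eif4ebp3, a repressor of cap-dependent translation, was at 5.497, 3.70 and 7.65 against 1.62, 1.05 and 2.10 RPKM (1.79, SE 0.25, adjusted p = 0.00931). The guanylate-binding protein Gbp11 (32.3, 34.4 and 53.4 against 14.1, 8.18 and 13.8 RPKM, 1.77, adjusted p = 0.00683) rose as well.

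Nrep (1.58, adjusted p = 0.00636), the ion channel gene Hcn3 (1.60, adjusted p = 0.0069), Ankrd55 (2.42, adjusted p = 0.0069) and the glycosyltransferase gene B3galt1 (1.30, adjusted p = 0.0239) completed the named protein-coding genes that rose. The unnamed locus Gm44992 also rose (1.76, adjusted p = 0.0481), a call kept in 2 of 6 fits with a library left out. Hcn3 overlaps Pklr on chromosome 3 on the opposite strand, and the sources used here do not state that the counting used strand, so its reads cannot be told apart from those of Pklr in the overlap. The others that fell were the taurine synthesis enzyme Csad (-1.13, adjusted p = 0.0133), the spindle orientation gene Insc (-1.17, adjusted p = 0.0148) and the small RNA gene Rny1 (-1.44, adjusted p = 0.0481). Rny1 rested on 4 to 13 reads in 16O and 19 to 20 in control libraries, and kept its call in 1 of 6 fits with a library left out.

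RNA of the mitochondrial genome was higher in the 16O livers. The small and large mitochondrial ribosomal RNAs are normally reduced by ribosomal RNA removal, so that their level in these libraries also depends on how complete that step was. mt-Rnr1, the 12S ribosomal RNA (chrM:70-1024), stood at 1148, 1737 and 1441 RPKM in 16O mice and 391, 324 and 676 in controls, and rose by 1.73 (SE 0.23, adjusted p = 0.00889). mt-Rnr2, the 16S ribosomal RNA (chrM:1094-2675), stood at 8793, 15194 and 12911 against 3286, 2789 and 5162 RPKM and rose by 1.77 (SE 0.27, adjusted p = 0.013). Neither overlapped between the groups, and mt-Rnr2 lost its call without control replicate 2 (adjusted p = 0.0701).

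All 13 mitochondrially encoded protein genes were higher in the 16O mean, with a median of 0.77. On scaled values 9 of the 13 did not overlap between the groups, against 18.5% of all genes. Only mt-Nd3, a subunit of complex I, rose (1951, 2441 and 2103 against 943, 954 and 1559 RPKM, 0.98, SE 0.19, adjusted p = 0.032), and it kept its call in 1 of 6 fits with a library left out (adjusted p up to 0.154). Without control replicate 3, 4 of the 13 rose. Cytochrome b (mt-Cytb) stood at 1629, 1243 and 974.7 against 527, 645 and 909 RPKM, apart but not past the threshold (0.93, SE 0.21, adjusted p = 0.0593). The cytochrome oxidase subunit mt-Co1, one of the most abundant RNAs of the liver, overlapped before scaling at 9532 to 13232 against 7027 to 10702 RPKM (0.39, SE 0.23, adjusted p = 0.535). These 13 genes are cut from shared precursor transcripts and are not independent.

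The nuclear genes of the same respiratory complexes did not rise with them. Of 51 tested, 14 were higher and 37 lower, with a median of -0.12. None passed in limma or in voom, and 1 in each had an unadjusted p under 0.05. In shares of reads, mitochondrial RNA was 5.22% to 6.87% of mapped reads in 16O and 2.73% to 4.32% in control libraries. Mitochondrial ribosomal RNA was 1.501% to 2.57% against 0.472% to 0.881%. In both measures the groups were apart, and the exact two-sided permutation test gave p = 0.1, the smallest that 3 against 3 allows. The 10 most abundant genes of each library took 23.5% to 27.7% of transcript reads in 16O and 21.9% to 22.9% in control libraries, and the part of this difference in the other results was not tested beyond the leaving out of all mitochondrially encoded genes, after which 74 genes passed both thresholds.

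**Figure D3:**
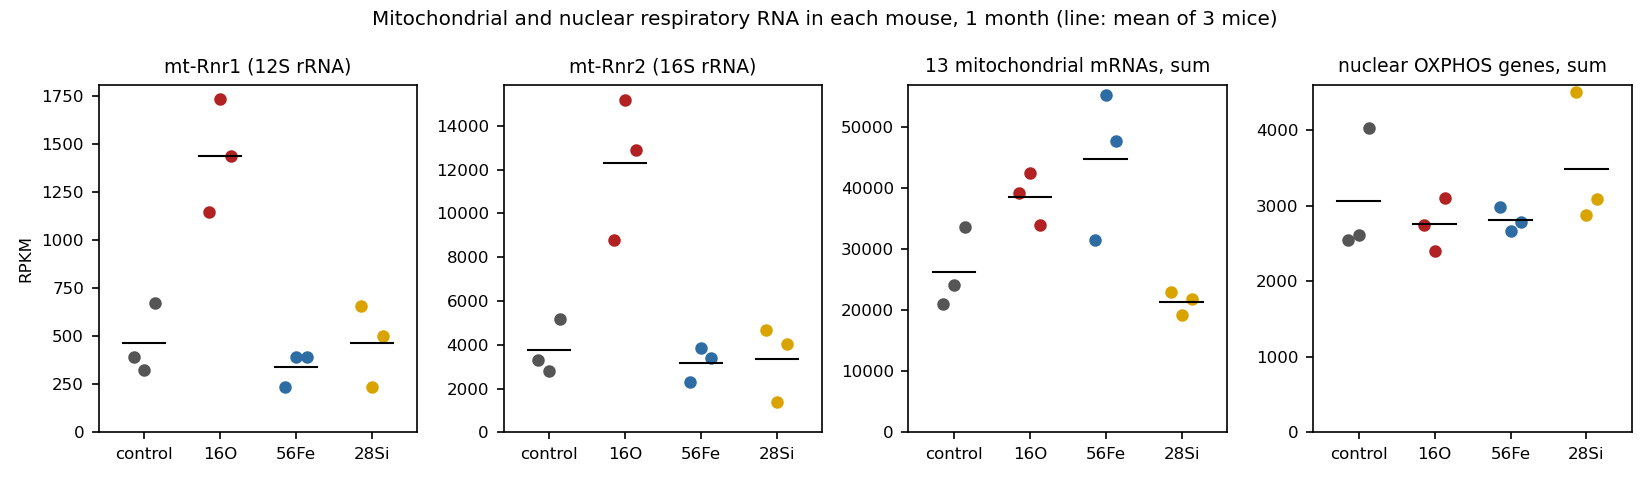
RPKM (vertical axes, linear from 0) of mt-Rnr1, of mt-Rnr2, of the 13 mitochondrial protein genes summed and of the nuclear oxidative phosphorylation genes summed, 1 point per mouse of 1 month in control, 16O, 56Fe and 28Si groups. The 3 16O mice lie above all 9 other mice for both ribosomal RNAs, at 1148 to 1737 RPKM for mt-Rnr1, whereas for the 13 protein genes the 56Fe mice reach as high, and for the nuclear genes the groups overlap.

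Of 20 tested genes of the circadian clock and its direct outputs, 2 rose and 1 fell, against 0.857% and 0.740% of all genes. The median was 0.33, with 15 higher and 5 lower. At an unadjusted p under 0.05 in limma 7 were higher and 3 lower. In voom 3 rose and 3 fell, where 146 of all 11083 genes rose and 156 fell. The groups did not overlap for 11 of the 20, against 18.5% of all genes. Dbp, a clock output that peaks late in the light phase in mouse liver, stood at 67.5, 65.3 and 67.1 RPKM in 16O mice and 42.1, 49.2 and 48.6 in controls (0.56, SE 0.12, adjusted p = 0.0483), and lost its call whichever of the 6 libraries was left out. Nr1d1, a repressor of Arntl, fell from 18.5 to 28.2 RPKM to 11.9 to 15.4 (-0.75, SE 0.15, adjusted p = 0.0364), with its call lost in 5 of 6 such fits. Arntl, the core activator known as Bmal1, was low and did not pass, at 0.224, 0.177 and 0.284 against 0.760, 0.635 and 0.710 RPKM (-1.27, SE 0.28, adjusted p = 0.0562). Per1 (0.28, adjusted p = 0.417) and Per2 (0.36, adjusted p = 0.417) did not pass. Since many lipid synthesis genes follow the hour of the day and the hour of collection was not given, these values stand beside the lipid results and their part in them was not tested.

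None of 20 tested p53 targets passed in limma or in voom, with 1 and 2 at an unadjusted p under 0.05. Mdm2, the ubiquitin ligase that p53 induces, was at 8.96 to 10.2 against 9.62 to 11.6 RPKM (-0.17, 95% interval -0.44 to 0.11, adjusted p = 0.657), and Ccng1 was at 0.31 (95% interval -0.05 to 0.67, adjusted p = 0.462). Cdkn1a, the p53-induced cell cycle inhibitor, was below the filter in both groups at 0.151 to 0.237 RPKM in 16O and 0.0430 to 0.246 in control livers. None of 35 tested genes of DNA break and base repair passed in limma or in voom, with 3 and 4 at an unadjusted p under 0.05.

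Of 22 tested cell cycle genes 1 rose, against 0.857% of all genes. It was Ccne1, the cyclin of entry into DNA synthesis, at 0.986, 1.22 and 0.883 against 0.287, 0.246 and 0.344 RPKM (1.55, SE 0.26, adjusted p = 0.0188). Ccne1 rested on 10 to 12 reads in each control library, passed the filter through the 16O mice alone and lost its call without control replicate 2 (adjusted p = 0.0591). The proliferation marker Mki67 was below the filter in both groups, at 0.172 to 0.437 RPKM in 16O and 0.399 to 0.676 in control livers. None of the 21 tested replication-dependent histone genes passed in limma or in voom, with 3 and 4 at an unadjusted p under 0.05.

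Of 37 tested interferon-induced genes 2 rose, against 0.857% of all genes, with 30 higher and 7 lower and a median of 0.26. Ifit1, which binds foreign RNA, was at 2.10, 1.72 and 2.08 against 0.864, 0.913 and 1.49 RPKM (0.87, SE 0.19, adjusted p = 0.0491), and the peptide transporter Tap1 was at 4.20 to 5.06 against 2.47 to 3.50 RPKM (0.66, SE 0.14, adjusted p = 0.0475). Both were near the threshold, Tap1 lost its call whichever library was left out and Ifit1 lost it in 5 of 6 such fits. Isg15, a ubiquitin-like protein, did not pass (0.69, SE 0.30, adjusted p = 0.37).

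Among 28 tested genes of drug metabolism under the receptors CAR and PXR 2 rose and none fell in limma, against 0.857% and 0.740% of all genes. Of the 28, 9 were higher and 19 lower. At an unadjusted p under 0.05 there were 7 higher and 11 lower. In voom 2 rose and 2 fell, where 146 of all 11083 genes rose and 156 fell. Cyp2a5, a coumarin hydroxylase, stood at 201, 234 and 218 RPKM in 16O mice and 89.4, 97.1 and 142 in controls (1.05, SE 0.14, adjusted p = 0.00913), and may share reads with its close paralogue Cyp2a4. Fmo2, a flavin monooxygenase, rose from 1.44 to 1.84 RPKM to 2.58 to 5.58 (1.22, SE 0.25, adjusted p = 0.0409). Its call was kept in 1 of 6 fits with a library left out. The classical CAR target Cyp2b10 was at 0.557 to 1.53 against 1.42 to 2.67 RPKM (-1.10, SE 0.33, adjusted p = 0.158), and the PXR target Cyp3a11 was at -0.33 (SE 0.16, adjusted p = 0.41).

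Of 33 tested glucose and glycogen genes 2 rose and 1 fell, against 0.857% and 0.740% of all genes. Glycogen synthase Gys2 rose from 31.3, 34.2 and 48.5 RPKM to 67.6, 56.5 and 66.9 (0.80, SE 0.12, adjusted p = 0.0133), and Pklr rose as given above. Ppp1r3c, a subunit that targets phosphatase to glycogen, fell (-0.94, SE 0.19, adjusted p = 0.0409). With a library left out Gys2 kept its call in 3 of 6 fits and Ppp1r3c in 1. The gluconeogenic genes Pck1 (0.18, SE 0.18, adjusted p = 0.744) and G6pc (-0.06, SE 0.24, adjusted p = 0.957) did not pass. None of 26 bile acid genes passed in limma, with 8 at an unadjusted p under 0.05. In voom 1 fell, where 156 of all 11083 genes fell. The rate-limiting enzyme Cyp7a1 was at 88.5 to 119 against 63.4 to 114 RPKM (0.18, SE 0.21, adjusted p = 0.8). Nr0b2, the bile acid-induced repressor of Cyp7a1 known as SHP, was at 3.83, 11.7 and 1.68 against 13.2, 14.7 and 25.2 RPKM, apart but variable (-1.93, SE 0.54, adjusted p = 0.129).

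The amino acid enzymes Sds (-0.74, SE 0.12, adjusted p = 0.0176) and Tat (-1.09, SE 0.18, adjusted p = 0.0191), both members of the periportal list, fell, while the urea cycle enzyme Cps1 was at -0.17 (SE 0.15, adjusted p = 0.713) and pericentral Glul at -0.16 (SE 0.16, adjusted p = 0.767). Of the remaining listed genes, coagulation factor F11 (0.77, adjusted p = 0.0176) and the glutathione-degrading stress gene Chac1 (1.90, adjusted p = 0.0316) rose. The transferrin receptor gene Tfrc (-0.79, adjusted p = 0.032), the phospholipid transfer protein gene Pltp (-0.83, adjusted p = 0.0414) and the NADPH-producing dehydrogenase gene G6pdx (-1.502, adjusted p = 0.0356) fell. Chac1 rested on 9 to 22 reads in control libraries, and G6pdx on 9 to 12 in 16O libraries. G6pdx passed the filter through the control mice alone and lost its call without each of the 16O libraries (adjusted p = 0.077 to 0.0848). Lhpp, a phosphatase, also fell (-0.95, adjusted p = 0.0338). With a library left out Pltp kept its call in 1 of 6 fits, and Tfrc and Lhpp each in 2 of 6.

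The study tested single transcripts, and of 28022 tested here 4 passed both thresholds, or 0.0143%. Serpina7 fell in its transcript ENSMUST00000033626 as in its gene (-2.89, SE 0.22, adjusted p = 0.0335). Akr1c6 transcript ENSMUST00000223118 stood at 29.002, 25.2 and 25.6 against 3.76, 4.19 and 6.92 RPKM (2.48, SE 0.22, adjusted p = 0.0464), whereas the gene, a hydroxysteroid dehydrogenase of the liver, was at -0.19 (adjusted p = 0.649). Short transcripts of the oxysterol receptor gene Nr1h3 (ENSMUST00000136234) and of the epoxide hydrolase gene Ephx1 (ENSMUST00000154133) were listed at 0 in all 3 controls and so passed the filter through the 16O mice alone. In 16O mice they stood at 3.69, 9.76 and 3.97 RPKM and at 3.24, 8.62 and 3.93 RPKM, and no fold is given for them. Neither gene passed as a whole, with Nr1h3 at 0.25 (adjusted p = 0.479) and Ephx1 at -0.13 (adjusted p = 0.791). The count of 4 transcripts became 0 without 16O replicate 1 or 2 or control replicate 1 or 2, 2 without 16O replicate 3, and 0 with a pseudocount of 0.5, and how the authors' counting divided reads among transcripts of 1 gene bears on these values.

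The 16O livers were next set against those of 56Fe and 28Si mice of 1 month directly, in 1 fit over the 12 libraries of that month and without use of the controls in the difference. Between 16O and 56Fe, 11 of 11539 genes passed both thresholds (0.0953%) and 23 passed the adjusted p (0.199%). Lpin1 stood at 99.8, 50.4 and 80.6 RPKM in 16O against 27.5, 19.7 and 18.1 in 56Fe livers (1.80, SE 0.21, adjusted p = 0.00681). mt-Rnr1 was at 1148, 1737 and 1441 against 234, 390.5 and 392 RPKM (2.13, SE 0.31, adjusted p = 0.0238), and mt-Rnr2 was at 8793, 15194 and 12911 against 2319, 3845 and 3408 RPKM (1.96, SE 0.36, adjusted p = 0.0498). For these 3 genes the 56Fe values lay wholly below the 16O values. Pfkfb3, a regulator of glycolysis, was higher in 16O by 1.99 (SE 0.30, adjusted p = 0.0259) and Eif4ebp3 by 1.71 (adjusted p = 0.0328), and the transcriptional co-regulator gene Mn1 was lower (-1.05, SE 0.15, adjusted p = 0.0235). The count of 11 was 0 without 16O replicate 1, 16O replicate 3 or 56Fe replicate 2, 1 without 16O replicate 2 or 56Fe replicate 1, and 22 in a fit of the 6 libraries of both ions alone.

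No member of the cholesterol list passed between 16O and 56Fe in limma, 3 of 25 had an unadjusted p under 0.05, and the list's median difference was -0.01. Insig1 differed by -0.28 (adjusted p = 0.403) and Mvd by -0.00 (adjusted p = 0.998) between the ions, and Mt1 by 0.40 (adjusted p = 0.783) and Mt2 by 0.52 (adjusted p = 0.784). These adjusted p-values do not show that the ions act alike. The 13 mitochondrial protein genes had a median of -0.33, and none of them passed in limma, with 1 at an unadjusted p under 0.05. Of the genes that changed against controls, Il1r1 (0.84, adjusted p = 0.0235) and Pklr (0.67, adjusted p = 0.0328) were also higher and Acaa1b (-0.65, adjusted p = 0.0293) lower in 16O than in 56Fe livers.

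Between 16O and 28Si livers 304 genes passed both thresholds (2.63%) and 1591 passed the adjusted p (13.8%). Of the latter, 689 were higher (5.97%) and 902 lower (7.82%) in 16O. The cholesterol list had 16 of 25 lower and none higher, with a median of -0.53, and the PPARα list had 15 of 31 lower and 1 higher. Mt2 was at 3.40, 0.554 and 1.10 RPKM in 28Si livers, wholly below the 16O values (4.52, adjusted p = 5.36e-05), and Mt1 was at 12.9, 3.73 and 5.63 RPKM (3.47, adjusted p = 5.23e-05). Tubb2a was at 23.8, 16.1 and 22.7 RPKM in 28Si livers, where it was lower in 16O by -3.30 (SE 0.15, adjusted p = 2.29e-08). Serpina7 was at 26.7, 10.9 and 11.02 RPKM (-2.65, adjusted p = 2.93e-05). Of the mitochondrial protein genes 12 of 13 were higher in 16O than in 28Si, with a median of 1.12.

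Clock genes also differed between 16O and 28Si livers, with 14 of 20 higher and 4 lower in 16O, against 5.97% and 7.82% of all genes, and a median of 1.08. Arntl was at 3.80, 2.31 and 2.88 RPKM in 28Si livers against 0.177 to 0.284 in 16O livers (-3.16, adjusted p = 8.33e-07). Dbp was at 15.2, 13.7 and 16.9 against 65.3 to 67.5 RPKM (2.20, adjusted p = 8.35e-08), and Per1 (2.12, adjusted p = 1.85e-06) and Per2 (1.89, adjusted p = 9.32e-05) were higher in 16O. These clock values stand beside every other difference between these ions, and their part in those differences was not tested.

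**Figure D4:**
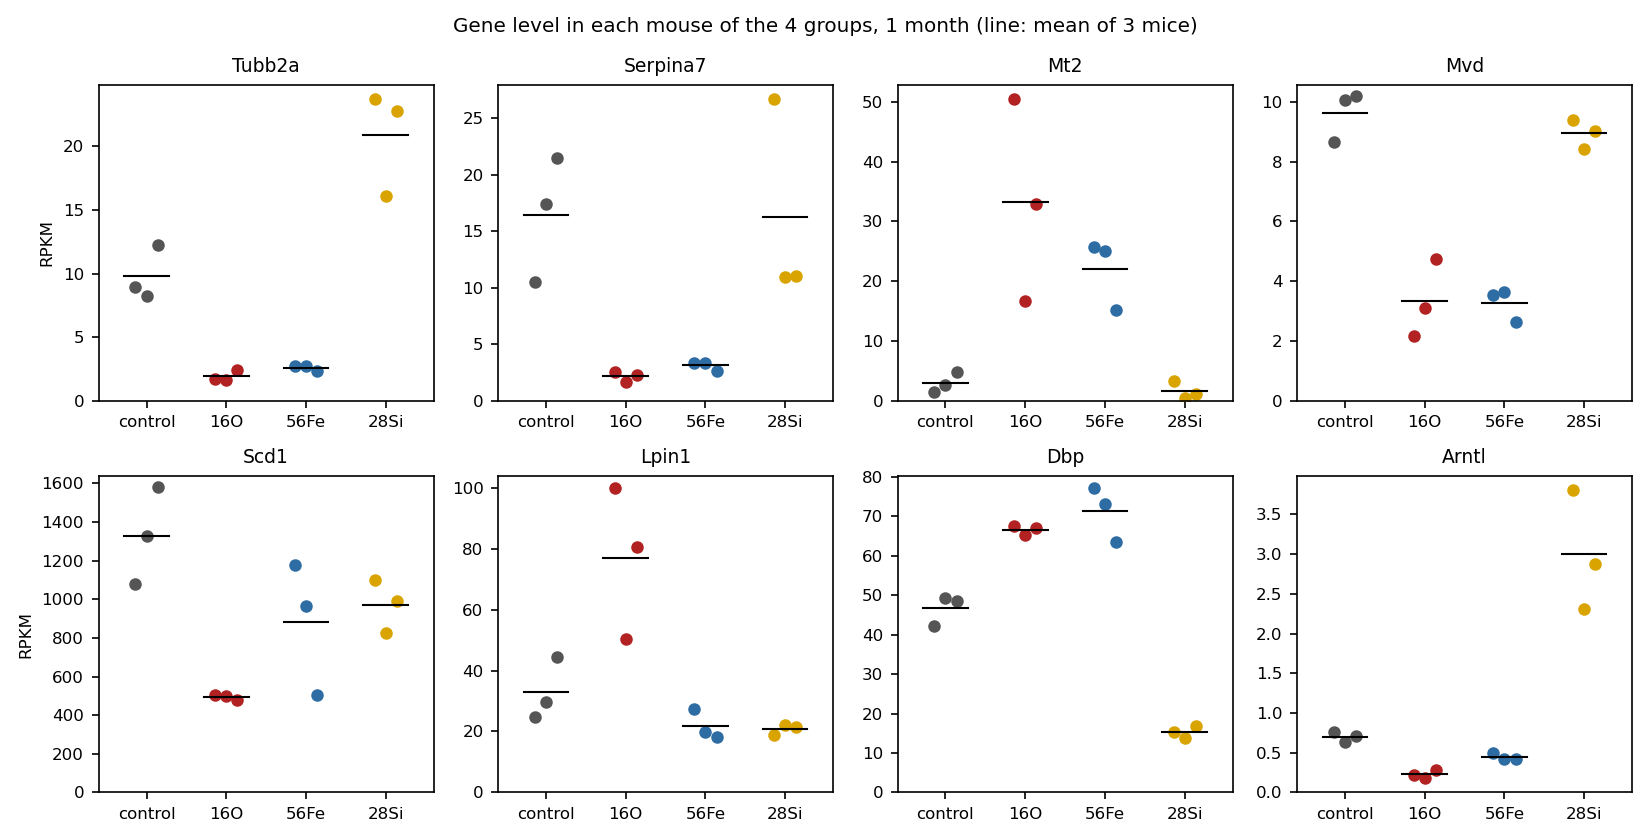
RPKM (vertical axes, linear from 0) of 8 genes in the control, 16O, 56Fe and 28Si livers of 1 month, 1 point per mouse, 3 mice per group. For Tubb2a, Serpina7, Mt2 and Mvd the 16O and 56Fe mice lie on the same side of the controls, for Lpin1 the 16O mice lie above the other 9, and for Dbp and Arntl the 28Si mice lie apart from the other groups.

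Set against the same 3 controls, the ions gave the following values side by side, which share those controls and so are not independent. At an adjusted p of 0.05, 131 genes passed for 56Fe (1.18% of those tested) and 27 for 28Si (0.244%). Tubb2a was at -2.25 in 16O, -1.82 in 56Fe and 1.03 in 28Si livers, and Serpina7 at -2.79, -2.27 and -0.15. Mt2 was at 3.49, 2.98 and -1.05, and Mvd at -1.52, -1.51 and -0.16. Scd1 was at -1.37, -0.63 and -0.50, and only its 16O value passed, although the direct difference between 16O and 56Fe was not past the threshold (-0.73, adjusted p = 0.233) and that between 16O and 28Si was (-0.89, adjusted p = 0.0154).

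The 16O effect of 1 month was also set against the mean 16O effect of 2, 4, 9 and 12 months, over the 30 control and 16O libraries, each time with its own controls. In these libraries 43.4% to 62.4% of reads lay in annotated transcripts at 1 and 2 months, against 70.8% to 88.4% at 4, 9 and 12 months. The part of this shift in the differences between times was not tested. Of 12293 genes 31 passed the adjusted p (0.252%), and 22 passed both thresholds, 17 with a more positive and 5 with a more negative difference at 1 month. Tubb2a fell at 1 month and was at 0.21, 0.44, -0.03 and 0.38 at the later times (difference of effects -2.51, SE 0.49, adjusted p = 0.0204). Gpcpd1 was at 0.11, -0.75, 0.49 and 0.06 later (1.69, SE 0.28, adjusted p = 0.013), and Gbp11 at -0.04, -0.33, 0.41 and -0.18 (1.81, SE 0.36, adjusted p = 0.0224). mt-Nd3 (1.70, adjusted p = 0.013) and mt-Atp6 (1.72, adjusted p = 0.0142) were also higher at 1 month than later relative to controls. At 1 month itself mt-Nd3 was at 0.98 and mt-Atp6 at 0.79 (adjusted p = 0.146), less than these differences of effects. Both therefore also reflect lower 16O values relative to controls at the later times. The count of 22 was 0 without control replicate 1 or control replicate 2 of 1 month, 9 to 12 without any 1 16O library of 1 month, and 5 without scaling.

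For most of the genes described above, the difference between 1 month and the later times did not pass. Mt2 was at 0.34, -1.61, 0.89 and -0.29 at 2, 4, 9 and 12 months, with no call at any of them, and its difference of effects was 3.67 (adjusted p = 0.429). Insig1 was at -0.12, 0.36, -0.57 and -0.27 (difference of effects -1.02, adjusted p = 0.193), and Serpina7 at -0.29, -0.15, -0.45 and -0.06 (-2.56, adjusted p = 0.1). mt-Rnr1 was at 0.83, 0.87, -0.47 and -0.61, without a call. Against their own controls 125 genes passed the adjusted p at 9 months (1.11% of those tested), 1 at 12 months (0.00878%) and 0 (0%) at 2 and at 4 months in limma, where 1072 and 690 genes had an unadjusted p under 0.05.

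Of the 67 genes of the naming rule that rose or fell at 1 month, 10 also passed at 9 months, all 10 in the same direction. Among those that rose at both times were Selenbp2 (1.67 at 9 months, adjusted p = 0.00118), Il1r1 (1.14, adjusted p = 0.0428) and F11 (0.57, adjusted p = 0.0428). Those that fell at both were Acaa1b (-0.98, adjusted p = 0.0125), Ehhadh (-0.996, adjusted p = 0.0123), Cyp4a10 (-2.50, adjusted p = 0.0122), Acot2 (-1.61, adjusted p = 0.00694), Scd1 (-2.02, adjusted p = 0.0187) and Pltp (-1.61, adjusted p = 0.0197). Of these 6 genes, 4 are the peroxisomal, thioesterase and omega-hydroxylase targets of PPARα. Cd36, the fatty acid transporter that PPARα also drives, was at 0.10 at 1 month and fell at 9 months (-3.82, adjusted p = 0.000867). The genes of cholesterol synthesis described above were not among those that passed at 9 months, with Mvd at -0.57 (SE 0.34).

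**Figure D5:**
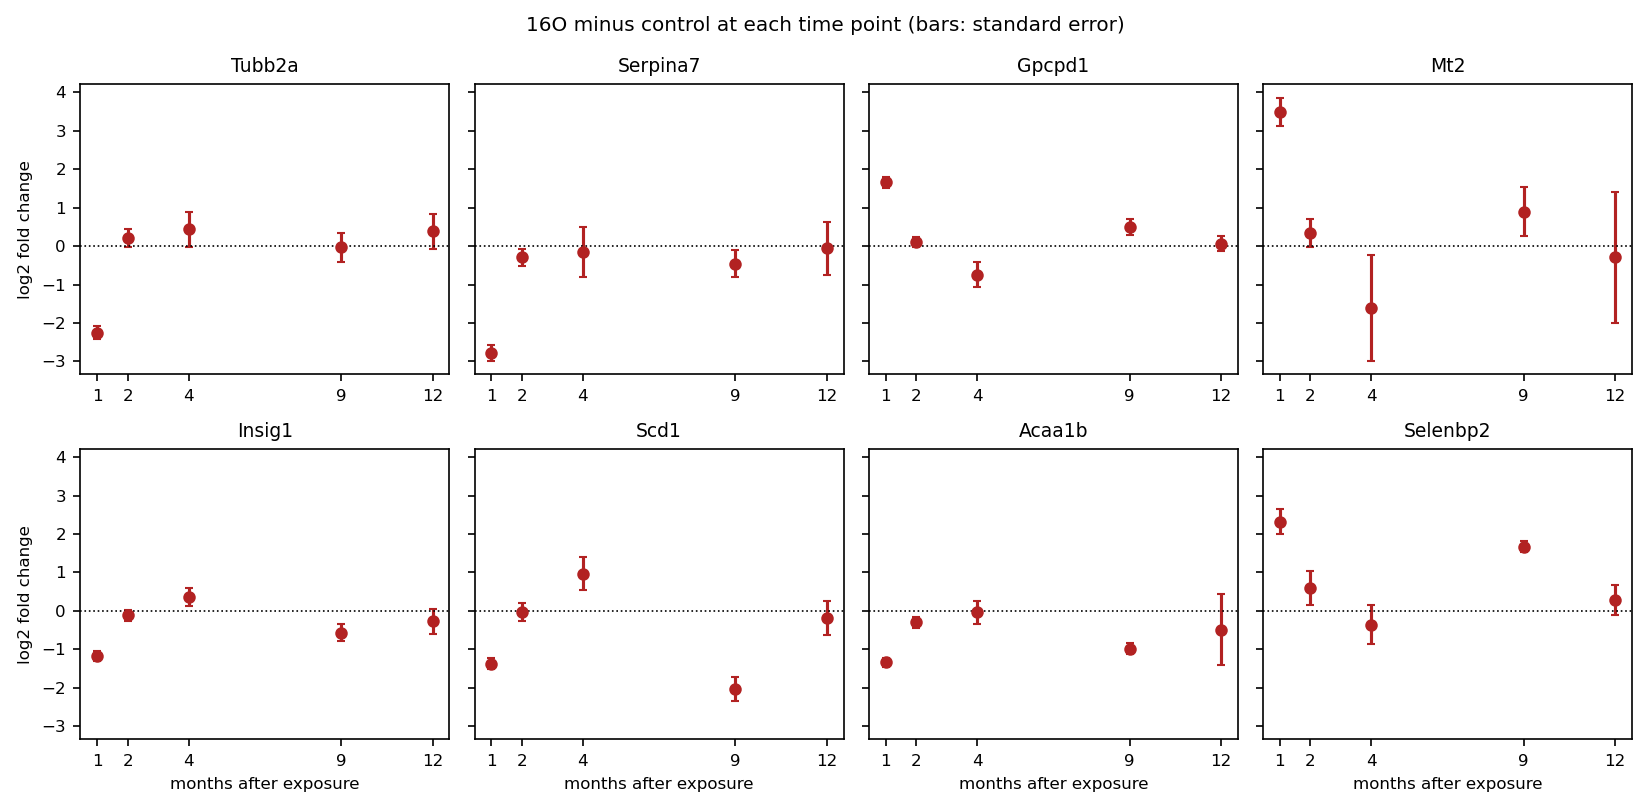
Log2 difference of 16O minus control (vertical axis) at 1, 2, 4, 9 and 12 months (horizontal axis) for 8 genes, with SE bars, 3 mice per group and time. Tubb2a, Serpina7 and Gpcpd1 lie away from 0 at 1 month and near 0 at 2 and 12 months, while Scd1, Acaa1b and Selenbp2 return at 9 months to -2.02, -0.98 and 1.67.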

How the data were processed

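Total RNA of slices of the left liver lobe was depleted of ribosomal RNA with Ribo-Zero, made into TruSeq libraries and sequenced with paired 50-base reads. The authors removed 14 bases at the start of each read, mapped reads in CLC Genomics Workbench to GRCm38 with annotation release 97 at a length and similarity fraction of 95%, and deposited RPKM values per transcript. Their own test was edgeR's quasi-likelihood test on counts, which were not used here. The 20 columns of group means were not used.

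Transcript RPKM (123811 transcripts) were summed to 38204 genes by name, with R 4.3.3 and Python 3.11.15. Libraries were scaled by a trimmed mean (30% of ratios and 5% of levels trimmed). Genes that reached 0.5 RPKM in 3 or more libraries were tested with limma 3.58.1 (empirical Bayes with a trend) on log2(scaled RPKM + 0.1), with Benjamini-Hochberg adjustment over all genes tested and thresholds of 0.05 and a fold of 2. Printed RPKM are the deposited values, unscaled, whereas overlap between groups was counted on the scaled values. Reads per gene were estimated from RPKM, transcript length and mapped reads, which gave values within 0.02 of a whole number for 99.81% to 99.92% of transcripts in the 6 libraries, and served the voom alternative and the read counts printed. The scripts were tested on simulated data.

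Groups came from the labels. Nothing in the sources used here gives the replicates an order or a pairing. Alternatives were other scalings, pseudocounts, filters, sets of libraries, voom, a replicate block and leaving out each library. Named genes were, per direction, the 15 with the largest fold among those past both thresholds with a mean log2 level of at least 1 and no overlap between groups, the members of the gene lists past the adjusted p threshold, and key members of the lists whatever their value. Counts cover every gene tested, and a few genes named by the rule are not reported here. Members and lists were chosen with earlier results of these data known. Coordinates are those of GENCODE for GRCm38. Precision is limited by 3 mice per group and, for low genes, by read number.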

Additional observations from a re-analysis of the deposited data

Results flagged for a closer look

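In 13 genes, which were named by rule or belong to the mitochondrially encoded protein genes, the 16O effect at 1 month differed from the mean 16O effect at the later times by limma's test of that difference itself, over 30 libraries at an adjusted p of at most 0.05. The difference of effects was more negative at 1 month for Tubb2a (-2.51), Cyp4a14 (-2.78), Tm7sf2 (-0.60) and Pgm3, a hexosamine pathway enzyme (-1.08). It was more positive for Gpcpd1 (1.69), Gbp11 (1.81) and for 7 of the 13 protein genes of the mitochondrial genome, mt-Nd3 (1.70), mt-Cytb (1.44), mt-Nd2 (1.29), mt-Nd4 (1.36), mt-Nd4l (1.71), mt-Atp8 (1.89) and mt-Atp6 (1.72). Cyp4a14 rested on 2, 3 and 4 reads in the 16O mice of 1 month against 37, 78 and 59 in their controls. At 1 month it passed the filter on low values through the control mice alone, so its value of -2.78 is uncertain. Against controls at 1 month the 13 mitochondrial protein genes differed by at most 0.98, and only mt-Nd3 rose. Their differences of effects therefore also reflect lower 16O values relative to controls at the later times. The mitochondrial genes are cut from shared precursors and were measured in libraries whose mitochondrial ribosomal RNA also differed. In limma without control replicate 1 or without control replicate 2 of 1 month, none of these differences passed (adjusted p = 0.0514 to 0.229).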

How the results depend on the processing

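With a pseudocount of 1, 46 genes passed both thresholds (22 higher), without a filter 30 were higher, and with all 60 libraries in the fit 35 passed (20 higher, 15 lower). On the adjusted p alone the count was 90 without scaling, 84 without a filter, 271 with the 12 libraries of 1 month and 74 with all 60. By voom it was 302, with 146 higher and 156 lower. Leaving out 1 library gave 44 to 73 genes past both thresholds (22 to 49 higher, 20 to 33 lower) and 54 to 154 on the adjusted p alone. Transcripts numbered 0 with a pseudocount of 0.5 and 0 to 4 with 1 library left out. Against 56Fe 22 genes passed in a fit of the 6 libraries of both ions, and 0 to 8 with 1 library left out. Against 28Si 191 passed with a pseudocount of 0.5 and 217 to 365 with 1 library left out. The difference between times passed for 5 genes without scaling and for 0 to 20 with 1 library left out. The causes were not tested.

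The counts of list members were chosen for repetition after the data were seen. Cholesterol genes that fell numbered 5 without scaling, 4 without a filter, 14 with 12 libraries, 5 with 60, 15 by voom and 2 to 11 with 1 library left out. Fatty acid genes that fell numbered 3 without scaling, 3 without a filter, 0 with 60 libraries and 2 to 4 with 1 library left out. PPARα targets that fell numbered 2 with 60 libraries and 4 to 5 with 1 library left out. Positive acute phase genes that rose numbered 0 with 60 libraries, 7 by voom and 3 to 5 with 1 library left out.

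The labels give no pairing. The deviations of same-numbered mice correlated at 0.06, 0.13 and 0.33, and those of different-numbered mice at -0.34 to 0.21. Among the latter, 16O replicate 1 correlated best with control replicate 2 (0.21). With 3 mice per group these values do not settle whether the replicate numbers pair the mice. With the number as a replicate block 97 genes and 0 transcripts passed both thresholds. On the adjusted p alone 394 of 11083 genes passed, 191 higher and 203 lower. In that fit 18 cholesterol genes fell and 0 rose, and 12 fatty acid genes fell and 2 rose. Of the positive acute phase genes 9 rose and 0 fell.

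Of the named genes' differences from control under the alternatives, 1946 kept direction and side of the threshold, 269 kept direction but no longer passed, 33 newly passed and 16 turned sign. Those 16 were all of genes that did not pass. By voom Nr1h3 was at -0.064 and Cd36 at -0.091. With 1 library left out the differences ranged from -0.26 to 0.025 for Glul, -0.040 to 0.36 for Cyp7a1, -0.13 to 0.65 for Mup20, -0.16 to 0.0037 for Gclc, -0.060 to 0.35 for Hamp, -0.11 to 0.22 for Cd36, -0.33 to 0.13 for Mlxipl, -0.40 to 0.21 for Hsd3b5 and -0.23 to 0.24 for G6pc.

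With 3 mice per group, few reads behind Cyp4a14, Ccne1, G6pdx, Chac1 and Rny1, and a transcript table that gives RPKM rather than counts, small differences were not detectable at this depth.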
